A study of Rattus norvegicus with 8 samples.

Results

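The cytosolic heat shock proteins described here are chaperones of the cytoplasm and nucleus and their best known partner BAG3, in 10 genes chosen by name: Hspb1, Hspb8, Cryab, Hspa8, Hspa1b, Hsph1, Hsp90aa1, Dnajb1, Dnaja1 and Bag3. A gene was taken as measured where the array's probe-to-gene table gave its symbol to a probe set, and the brightest probe set was to stand for a gene with several. This held for 7 of the 10, with 1 probe set each, among 15037 gene symbols on the array. Hspa1b, Dnajb1 and Dnaja1 are not analysed here. No value filter was applied, so all 7 measured genes entered every test.

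Small heat shock proteins such as HSPB1 and alpha B-crystallin hold unfolding proteins without using ATP. HSP70 proteins fold clients in an ATP cycle that J proteins start and HSP110 proteins, as nucleotide exchange factors, complete, and HSP90 acts later on kinases, receptors and other clients. BAG3 joins HSP70 to small heat shock proteins and passes damaged proteins to selective autophagy, a route known in muscle for the turnover of stretched filamin. Heat shock factor 1, HSF1, induces many of these genes through heat shock elements, which are alternating GAA and TTC units in the promoter.

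Cells were H9c2, a myoblast line from embryonic rat heart, seeded at 35000 per square centimetre, kept in differentiation medium and fixed on day 10 in RNAlater. The 8 samples, 1 array each, were 1 of untreated cells flown to the International Space Station, 2 of cells flown with 100 µg/ml of nanoceria (serum-coated cerium oxide nanoparticles), 2 of untreated ground cells and 3 of ground cells with the same dose. All groups shared the cell line, medium and temperature course, from a pouch preheated to 27 °C to an incubator at 37 °C on day 7. Flight units were activated automatically, while ground units were run later by hand on the logged temperatures, so regime and culture run cannot be told apart. Replicate numbers below are those of the labels, and untreated ground replicate 2 is not analysed here. Separate ground units are described, but no label ties an array to a culture, so p-values reflect only how far these samples spread. The values are log2 RMA intensities of RNA, and no protein or chaperone activity was measured.

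Promoters are shown for 4 of the genes because their heat shock elements differ in number and length. Hspb1, Hsph1 and Bag3 are among the genes whose RNA values are compared in most depth below, and Hspa8 holds 2 runs of 3 units. The RefSeq promoter table (GRCr8) held 5 of the 7 measured genes, Hspb1, Hspb8, Hspa8, Hsph1 and Bag3, and the 250 bases before each annotated start were searched. A pair of facing or opposed units, GAANNTTC or TTCNNGAA, each its own reverse complement, lay in 5 of these 5 promoters and in 13.5% of all 33469 promoters over the same 250 bases. The longer run of 3 units, GAANNTTCNNGAA or TTCNNGAANNTTC, which are reverse complements of each other and contain the pair, lay in 2 of the 5 (Hspa8 and Hsph1) and in 0.663% of all promoters. Each sequence runs 5′ to 3′ towards the gene's start, with the units of every match in capitals. They lie at chr12:26432302-26432551 on the minus strand (Hspb1), and on the plus strand at chr8:50080264-50080513 (Hspa8), chr12:10427118-10427367 (Hsph1) and chr1:192533210-192533459 (Bag3).
Hspb1: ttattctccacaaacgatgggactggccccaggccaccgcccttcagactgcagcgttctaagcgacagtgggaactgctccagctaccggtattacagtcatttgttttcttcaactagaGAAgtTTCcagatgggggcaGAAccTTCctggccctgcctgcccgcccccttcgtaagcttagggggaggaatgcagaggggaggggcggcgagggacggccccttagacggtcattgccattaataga
Hspa8: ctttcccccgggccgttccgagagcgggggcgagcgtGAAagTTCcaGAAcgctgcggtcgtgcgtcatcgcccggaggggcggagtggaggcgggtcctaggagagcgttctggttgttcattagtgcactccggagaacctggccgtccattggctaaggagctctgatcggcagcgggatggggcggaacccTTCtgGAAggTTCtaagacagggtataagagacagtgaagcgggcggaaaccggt
Hsph1: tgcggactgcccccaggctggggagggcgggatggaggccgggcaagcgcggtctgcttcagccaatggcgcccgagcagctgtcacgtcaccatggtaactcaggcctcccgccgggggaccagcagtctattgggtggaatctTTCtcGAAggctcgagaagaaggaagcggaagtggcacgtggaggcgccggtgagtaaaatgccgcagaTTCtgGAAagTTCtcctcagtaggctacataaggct
Bag3: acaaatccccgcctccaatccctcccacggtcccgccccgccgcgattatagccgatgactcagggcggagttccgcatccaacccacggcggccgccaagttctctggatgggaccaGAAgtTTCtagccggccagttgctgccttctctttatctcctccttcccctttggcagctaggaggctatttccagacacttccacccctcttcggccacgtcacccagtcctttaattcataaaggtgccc

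Relative to the start, Hspb1 held pairs from -129 to -122 and from -109 to -102, and Bag3 held 1 pair from -132 to -125. Hspa8 held a run of 3 units from -213 to -201 and another from -55 to -43. Hsph1 held a pair from -105 to -98 and a run of 3 units from -36 to -24. The promoter of Hspb8 (chr12:45837058-45837307, plus strand), not printed, held 1 pair from -23 to -16. That of Hspa1a, a near copy of Hspb1's fellow member Hspa1b, was searched in the same window and held neither a pair nor a longer run. A match describes letters in this window and says nothing of binding.

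The arrays carried a muscle-lineage profile and some differences between samples that bear on the results. Of 11 measured genes listed as myoblast and skeletal muscle markers, 8 lay above the array median on all 8 arrays, among them Myod1, Myh3 and Acta1. Actc1 and Tnnt2, also among these 8, are cardiac forms too, so the list does not separate skeletal from cardiac muscle. Of 7 cardiomyocyte markers, 5 lay below it on every array, including Gata4, Tnni3 and Ryr2, but Nkx2-5 lay above it on all 8. Also below it on every array were 5 of 5 endothelial and 3 of 4 leukocyte markers, with Cd68 above it. Untreated ground replicate 3 stood apart. Its mean over 16 cell cycle genes was -2.03 on the log2 scale relative to the mean of all arrays, against 0.036 to 0.52 on the other 7, and 15 of the 16 were lowest there. On the same array, 11 muscle markers averaged -1.02, 8 targets of the antioxidant factor NRF2 averaged 1.08 and 13 endoplasmic reticulum chaperones averaged 0.63. In nanoceria-treated ground replicate 3, muscle markers averaged 0.88 and NRF2 targets -0.53. These lists differed between and within the ground groups, and their part in the heat shock results was not tested. In bulk RNA, fewer cells of a type and less RNA per cell cannot be told apart.

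Most of these genes had their lowest single array in space and their highest single array among nanoceria-treated ground cells. Hsp90aa1, the inducible HSP90 alpha, ran the other way. By group mean, treated ground cells were highest for Hspb1, Cryab and Bag3 only. Untreated ground cells were highest for Hspb8, Hspa8 and Hsph1, by little for Hspa8 and Hsph1. The array of untreated cells in space held the lowest value of all arrays for 4 of the 7 genes, Hspb1, Cryab, Hspa8 and Bag3. Nanoceria-treated ground replicate 3 held the highest for 4, Hspb1, Hspa8, Hsph1 and Bag3. Hspb1 had the widest range, 1.82 on the log2 scale or 3.54-fold, followed by Hsp90aa1 with 1.27, Bag3 with 1.11, Hspb8 with 0.79, Hsph1 with 0.74, Cryab with 0.71 and Hspa8 with 0.51. After subtracting each gene's own mean, the median of the 7 genes was -0.33 in untreated space cells and -0.071 and -0.15 in treated space cells. It was 0.18 and 0.12 in untreated ground cells and 0.12, 0.014 and 0.29 in treated ground cells.

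**Figure D1:**
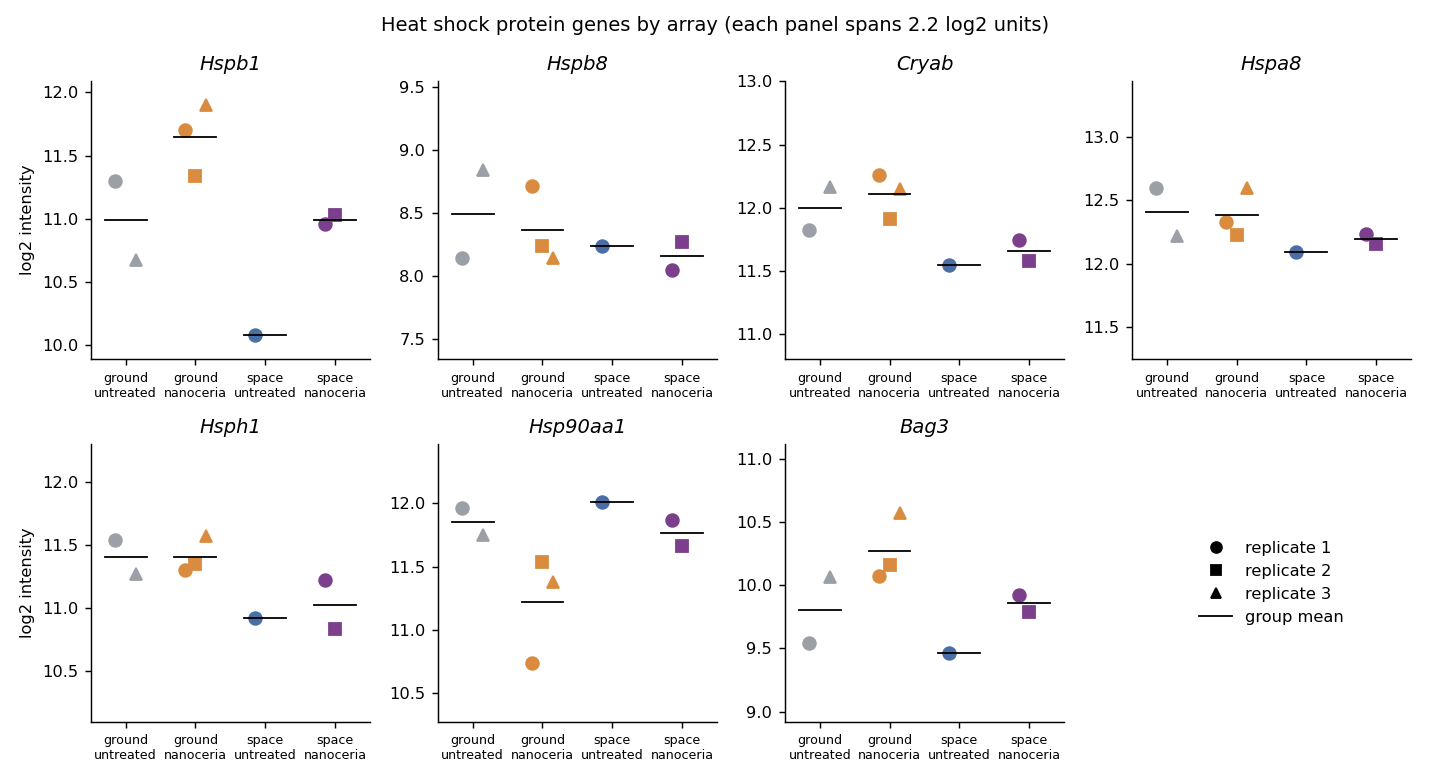
Log2 intensity of the 7 measured genes on each of the 8 arrays (y axis, 1 panel per gene, each spanning the same number of log2 units) by group (x axis), with the replicate number as the symbol and the group mean as a line. The 3 space arrays lie below all 5 ground arrays for Cryab and Hsph1, and Hspb1 spans 10.08 to 11.90.

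The first comparison set space against ground over both treatments, with treatment as a covariate in limma on all 8 arrays. Of the 7 genes, 6 lay lower in space and 1, Hsp90aa1, lay higher, and the median difference was -0.39 on the log2 scale. Over all 23188 probe sets, 58.7% lay lower and the median was -0.044. None of the 7 passed Benjamini-Hochberg adjustment over all probe sets at 0.05, where 0% of the array did (0 probe sets). At an unadjusted p below 0.05, 3 of the 7 lay lower (Hspb1, Cryab and Hsph1) and 0 higher, against 4.26% of probe sets lower (987) and 5.3% higher (1230). For Cryab and Hsph1 the space and ground arrays did not overlap, in the direction that 3.14% of probe sets showed. When each array was left out in turn, 6 of the 7 stayed below 0 in all 8 fits, and 2 to 4 had an unadjusted p below 0.05.

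The effect of nanoceria was next taken over both regimes, with regime as a covariate. Here 5 of the 7 genes lay higher and 2 lower (3 and 4 under cyclic loess scaling), with a median of 0.038 against 0.033 for all probe sets, of which 56% lay higher. Hspb1 and Bag3 lay higher and Hsp90aa1 lower at an unadjusted p below 0.05, where 3.77% of probe sets lay higher (874) and 5.86% lower (1359). None passed adjustment in limma, as 0% of the array did (0 probe sets). As the mean of the effects in the 2 regimes, an alternative added after the data were seen, 1 of the 7 had an unadjusted p below 0.05. That number was between 1 and 3 when each array was left out, and the lowest came without untreated ground replicate 1.

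On ground alone, 3 treated arrays were set against 2 untreated ones, with 1 mean per group and a spread shared over the 4 groups. Hspb1, Cryab and Bag3 lay higher with nanoceria and Hsp90aa1 lower, while Hspb8, Hspa8 and Hsph1 lay between -0.13 and -0.00062. With 3 of the 7 above 0 (5 with equal array medians), as were 55.5% of probe sets, the median was -0.00062, against 0.038 for the array. Groups did not overlap for Hspb1 and Bag3 (higher, as for 14.3% of probe sets) and Hsp90aa1 (lower, as for 12%). Hspb1 lay higher and Hsp90aa1 lower at an unadjusted p below 0.05, against 4.42% (1026) and 6.57% (1523) of the array, and 0% of probe sets passed adjustment in limma (0 probe sets). The median was 0.22 without untreated ground replicate 3 and 0.13 without untreated ground replicate 1, and 0 to 2 of the genes had an unadjusted p below 0.05 when an array was left out. Both ground groups served in this comparison and in those of space against ground, the treated arrays with opposite sign, so the comparisons are not independent.

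**Figure D2:**
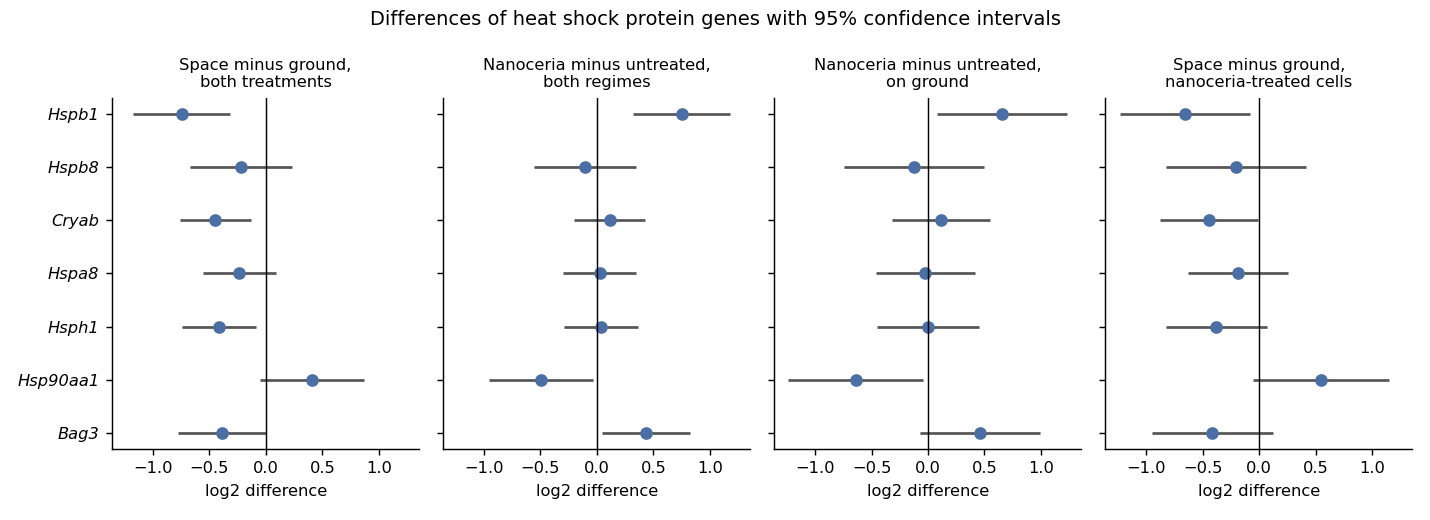
Log2 differences of the 7 genes (points) with 95% confidence intervals (bars) from limma in 4 comparisons, 1 panel each, with 0 as a vertical line. In space against ground over both treatments the intervals of Hspb1, Cryab and Hsph1 lie below 0, and in nanoceria against untreated over both regimes those of Hspb1 and Bag3 lie above 0 and that of Hsp90aa1 below.

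Hspb1 encodes HSP27, a small heat shock protein that also binds actin and is induced by stress. Its log2 intensity was 10.08 in untreated space cells, 10.96 and 11.03 in treated space cells, 11.30 and 10.68 in untreated ground cells, and 11.70, 11.34 and 11.90 in treated ground cells. Untreated space cells were lowest, treated ground cells were highest, and the other 2 groups lay between and overlapped. Group means ran from 11.65 ± 0.29 (SD, n = 3) in treated ground cells to 10.99 ± 0.44 (SD, n = 2) in untreated ground and 10.99 ± 0.05 (SD, n = 2) in treated space cells, and to the single value of 10.08. The latter pair did not differ beyond their spread, and treated ground cells exceeded the higher untreated ground array by little, 11.34 at the lowest against 11.30. Space against ground differed by -0.75 ± 0.19 (SE; 95% interval -1.18 to -0.32), 1.68-fold lower, with unadjusted p = 0.00374 and adjusted p = 0.379 (limma). Nanoceria over both regimes differed by 0.75 ± 0.19 (interval 0.32 to 1.18), 1.68-fold higher, with unadjusted p = 0.00363 and adjusted p = 0.406. Both had an unadjusted p below 0.05 in all 16 alternative fits run, and neither passed adjustment in any of them.

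The difference in Hspb1 lay in the same direction within each regime and each treatment. With nanoceria it was 0.66 ± 0.25 on ground (adjusted p = 0.407) and 0.91 ± 0.33 in space (adjusted p = 1.00), where the untreated side was 1 array. Space against ground was -0.65 ± 0.25 in treated cells (adjusted p = 0.550), without overlap, and -0.91 ± 0.33 in untreated cells (adjusted p = 1.00). The interaction, the nanoceria difference in space minus that on ground, was 0.26 ± 0.41 with an interval of -0.71 to 1.22. On ground the nanoceria difference rested on which untreated array was used: 0.35 without replicate 3 and 0.97 without replicate 1.

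Cryab encodes alpha B-crystallin, an abundant small heat shock protein of heart and skeletal muscle that guards desmin and actin filaments. Its log2 intensity was 11.55 in untreated and 11.74 and 11.58 in treated space cells, and 11.83 and 12.17 in untreated and 12.26, 11.91 and 12.15 in treated ground cells. Every space array lay below every ground array, and on ground the treated and untreated arrays overlapped. In decreasing order the groups were treated ground (12.11 ± 0.18, SD, n = 3), untreated ground (12.00 ± 0.24, SD, n = 2), treated space (11.66 ± 0.12, SD, n = 2) and the untreated space array. The ground groups did not differ beyond their spread. The single untreated space array, at 11.55, lay just below the lower treated one, at 11.58. Space and ground differed by -0.45 ± 0.14 (interval -0.76 to -0.13), 1.36-fold lower, with unadjusted p = 0.0110 and adjusted p = 0.399 (limma). It was -0.45 ± 0.19 within treated cells and -0.45 ± 0.25 within untreated cells, and the interaction was 0.0023 ± 0.31. Nanoceria differed by 0.11 ± 0.14 over both regimes, with an interval of -0.20 to 0.43 and values from 0.021 to 0.20 when arrays were left out.

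Hspb8 encodes HSP22, the small heat shock protein that BAG3 binds. It read 8.24 in untreated and 8.05 and 8.27 in treated space cells, then 8.14 and 8.84 in untreated and 8.71, 8.24 and 8.14 in treated ground cells. No group stood clear of another: untreated ground replicate 3 was highest, and 3 of the 5 ground arrays lay within the range of the space arrays. Group means were 8.49 ± 0.49 (SD, n = 2) in untreated ground, 8.36 ± 0.30 (SD, n = 3) in treated ground and 8.16 ± 0.15 (SD, n = 2) in treated space cells, with the untreated space array at 8.24. The space difference was -0.22 ± 0.20 and that with nanoceria over both regimes -0.11 ± 0.20, with adjusted p = 0.742 and 0.873 (limma). On ground the nanoceria difference was -0.13 ± 0.26. Without untreated ground replicate 3 the space difference was -0.12 and the nanoceria differences were 0.081 over both regimes and 0.22 on ground.

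The other 6 small heat shock proteins were all measured, and the list was chosen with earlier results of these data known. With nanoceria on ground 6 of 6 lay higher with a median of 0.51, 3 of them at an unadjusted p below 0.05, and 0 passed adjustment. Over all probe sets 55.5% lay higher, 4.42% at such a p. Cryaa, higher by 0.61, read 4.73 to 6.26, below the log2 array medians of 6.75 to 6.87, so it may be background. Hspb9, at 6.26 to 6.98, lay near those medians and differed by only 0.057. All 6 also lay higher under cyclic loess, with equal array medians and without untreated ground replicate 3, where the median was 0.34. Hspb2, which lies beside Cryab in mammalian genomes, differed by 0.62 ± 0.16 (adjusted p = 0.265) and Hspb7, a heart and muscle chaperone of filamin C, by 0.64 ± 0.23 (adjusted p = 0.397), or 0.35 without untreated ground replicate 3. Hspb2 levels were 10.86 ± 0.16 (SD, n = 3) in treated and 10.24 ± 0.13 (SD, n = 2) in untreated ground cells, against 10.51 ± 0.02 (SD, n = 2) in treated and 10.31 in untreated space cells. Within space, 3 of the 6 lay higher and 3 lower with nanoceria, with a median of 0.030. Between space and ground over both treatments 5 of 6 lay lower, with a median of -0.21 and none at an unadjusted p below 0.05, as in Hspb6 at -0.21 ± 0.13 and the testis gene Hspb9 at -0.26 ± 0.15. In treated cells 6 of 6 lay lower in space (median -0.34), but in untreated cells 4 of 6 lay higher (median 0.075). On ground the muscle markers lay higher too, in 11 of 11 genes with a median of 0.99. Their part in this result was not tested.

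Hspa8 encodes HSC70, the constitutive HSP70 that also brings proteins to the lysosome. Its probe set is marked as unmapped in the array's own identifiers, and near-identical copies of the gene could share its signal, so its values are uncertain. They were 12.09 in untreated and 12.24 and 12.16 in treated space cells, and 12.59 and 12.22 in untreated and 12.33, 12.23 and 12.60 in treated ground cells. This was the narrowest range of the 7 genes, and the ground groups, at 12.41 ± 0.26 (SD, n = 2) and 12.39 ± 0.19 (SD, n = 3), did not differ beyond their spread. Treated space cells averaged 12.20 ± 0.06 (SD, n = 2), just below the lowest ground array at 12.22. Their higher array, 12.24, lay within the range of both ground groups. Between space and ground the difference was -0.23 ± 0.14 (interval -0.56 to 0.089; adjusted p = 0.624, limma). Nanoceria was 0.023 ± 0.14 over both regimes, with an interval of -0.30 to 0.35, and turned to -0.045 under cyclic loess scaling.

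Hsph1 encodes HSP105, the stress-inducible HSP110 that recharges HSP70. Its log2 intensity was 10.92 in untreated and 11.22 and 10.83 in treated space cells, and 11.54 and 11.27 in untreated and 11.30, 11.34 and 11.57 in treated ground cells. As for Cryab, every space array lay below every ground array, with 11.22 and 11.27 the closest pair. Both ground groups stood at the same mean, 11.41 ± 0.19 (SD, n = 2) untreated and 11.40 ± 0.14 (SD, n = 3) treated, and treated space cells at 11.03 ± 0.28 (SD, n = 2). The ground pair did not differ beyond its spread, and the single untreated space array lay between the treated ones at 10.83 and 11.22. Space against ground was -0.42 ± 0.14 (interval -0.74 to -0.090), 0.749 times the ground level, with unadjusted p = 0.0185 and adjusted p = 0.438 (limma). An unadjusted p below 0.05 was kept in 13 of 16 alternative fits, and the difference ran from -0.53 to -0.33 when arrays were left out. With nanoceria it was -0.00062 ± 0.19 on ground, with an interval of -0.45 to 0.45.

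Among the other 7 cytosolic HSP70, HSP110 and HSP90 genes, 3 lay higher and 4 lower in space, with a median of -0.060 and none at an unadjusted p below 0.05. The 2 with the smallest p were Hspa1l at 0.29 ± 0.15 and Hspa14, which works at the ribosome, at 0.53 ± 0.32. Hspa1l read 5.24 to 5.96, below the log2 array medians of 6.75 to 6.87, so it may be background. Hspa14 read 6.14 to 7.56, on both sides of those medians. Hspa1a, the stress-inducible HSP70 and a near copy of Hspa1b, lay at -0.22 ± 0.16 in space and 0.21 ± 0.20 with nanoceria on ground (0.091 without untreated ground replicate 3), and its probes may also read Hspa1b. Its log2 intensity was 6.03 to 6.78, near or below the array medians, so it may be background. Hspa4, a constitutive HSP110 relative, lay at -1.07 ± 0.25 with nanoceria on ground (adjusted p = 0.234), from 9.90 ± 0.008 (SD, n = 2) to 8.82 ± 0.40 (SD, n = 3). Of 9 other J proteins, which start the HSP70 cycle, 5 lay higher and 4 lower in space. Dnajb2 was at -0.34 ± 0.12 and Dnajc7 at 0.31 ± 0.19 there, and on ground nanoceria gave -0.75 ± 0.18 for the ribosome-bound Dnajc2 and 0.59 ± 0.18 for Dnajb5. None of these passed adjustment in limma.

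Hsp90aa1 encodes HSP90 alpha, the stress-inducible form of the chaperone of kinases and steroid receptors. It read 12.01 in untreated and 11.87 and 11.66 in treated space cells, 11.97 and 11.75 in untreated ground cells, and 10.73, 11.54 and 11.38 in treated ground cells. Treated ground cells were lowest and stood clear of all other arrays, and the other groups overlapped, apart from the single untreated space array at the top. In decreasing order, untreated space was followed by untreated ground (11.86 ± 0.16, SD, n = 2), treated space (11.77 ± 0.15, SD, n = 2) and treated ground (11.22 ± 0.43, SD, n = 3). Nanoceria on ground differed by -0.64 ± 0.26 (interval -1.24 to -0.041), 1.56-fold lower, with unadjusted p = 0.0394 and adjusted p = 0.431 (limma). It was -0.40 without treated ground replicate 1, the lowest array, and -0.80 without treated ground replicate 2. In space the difference was -0.24 ± 0.34, and the interaction was 0.40 ± 0.43 with an interval of -0.61 to 1.40. In space it lay 0.41 ± 0.20 above ground over both treatments (adjusted p = 0.564) and 0.55 ± 0.26 in treated cells, where the arrays did not overlap. Without treated ground replicate 1 these were 0.25 and 0.31. The constitutive form, Hsp90ab1, lay at -0.060 ± 0.11 in space and -0.10 ± 0.15 with nanoceria on ground.

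Bag3 encodes the co-chaperone that ties HSP70 to small heat shock proteins and to autophagy. Its log2 intensity was 9.47 in untreated and 9.92 and 9.79 in treated space cells, and 9.54 and 10.07 in untreated and 10.07, 10.16 and 10.57 in treated ground cells. Treated ground cells were highest and did not overlap treated space cells, while the lowest treated ground array and the higher untreated one were nearly equal. The order was treated ground (10.27 ± 0.27, SD, n = 3), treated space (9.86 ± 0.09, SD, n = 2), untreated ground (9.81 ± 0.37, SD, n = 2) and untreated space, and the middle pair did not differ beyond its spread. Nanoceria over both regimes differed by 0.44 ± 0.17 (interval 0.049 to 0.82), 1.35-fold higher, with unadjusted p = 0.0316 and adjusted p = 0.479 (limma), and by 0.29 without untreated ground replicate 1. Space against ground was -0.39 ± 0.17 (interval -0.77 to 0.0016), with adjusted p = 0.524. On ground nanoceria gave 0.46 ± 0.23, which was 0.20 without untreated ground replicate 1 and 0.72 without untreated ground replicate 3.

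**Figure D3:**
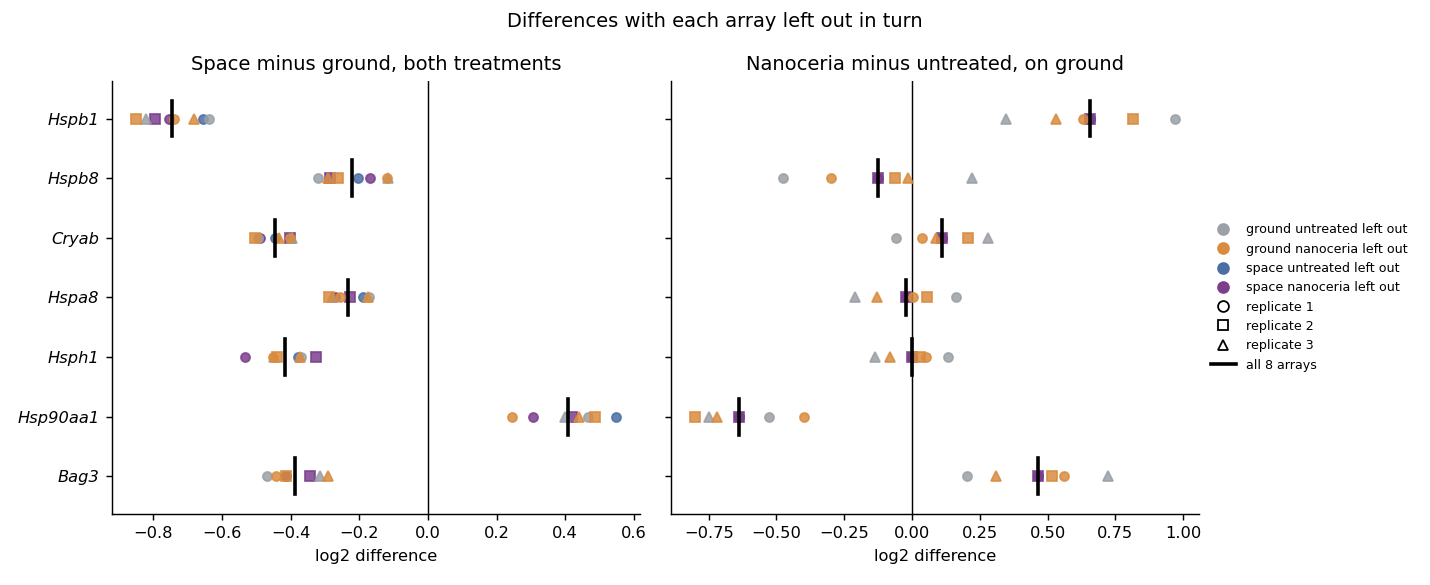
Log2 differences of the 7 genes (x axis) with each of the 8 arrays left out in turn (points, coloured by the group and shaped by the replicate left out), and with all 8 arrays (black line). In space minus ground no gene crosses 0, whereas in nanoceria minus untreated on ground Hspb8, Cryab, Hspa8 and Hsph1 lie on both sides of 0 and Hspb1 runs from 0.35 to 0.97.

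BAG3's partners and the other co-chaperones lay on both sides of 0. Of 16 measured co-chaperones of HSP70 and HSP90, 6 lay higher and 10 lower in space with a median of -0.13, and 3 lay lower at an unadjusted p below 0.05. Over all probe sets 58.7% lay lower, 4.26% at such a p. Cdc37, which loads kinases onto HSP90, was at -0.68 ± 0.13 (adjusted p = 0.329, limma), from 10.40 ± 0.09 (SD, n = 2) untreated and 10.78 ± 0.19 (SD, n = 3) treated on ground to 9.88 untreated and 10.01 ± 0.009 (SD, n = 2) treated in space. Unc45a, a myosin chaperone that works with HSP90, was at -0.74 ± 0.19 (adjusted p = 0.379). With nanoceria on ground, 10 of the 16 lay higher and 6 lower (median 0.13), against 55.5% of probe sets higher. Among those higher were Cdc37 at 0.39 and Unc45a at 0.65. At an unadjusted p below 0.05 in limma, 2 lay higher and 4 lower, against 4.42% and 6.57% of probe sets. Chordc1 and Ptges3, both HSP90 co-chaperones, lay lower at -1.04 ± 0.25 and -1.31 ± 0.42 (adjusted p = 0.250 and 0.353). Of 8 genes of BAG3-linked autophagy, 5 lay higher and 3 lower in space, and 3 and 5 without untreated ground replicate 3. Synpo2, the BAG3 adaptor of muscle Z-discs, was at 0.67 ± 0.23 and the autophagy receptor Sqstm1 at -0.57 ± 0.24 there, with adjusted p = 0.440 and 0.503. On ground nanoceria gave 0.79 ± 0.25 for Synpo2 and 0.56 ± 0.23 for the BAG3 client Flnc, filamin C, which were 0.38 and 0.20 without untreated ground replicate 3.

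Of 4 measured heat shock factor genes and regulators, 1 lay higher and 3 lower in space. Hsf1 lay at -0.18 ± 0.15 in space (interval -0.52 to 0.16; adjusted p = 0.721, limma) and at 0.23 ± 0.19 with nanoceria on ground. Hsf2, a second factor of the family, was at 0.73 ± 0.26 in space (adjusted p = 0.458) and -0.73 ± 0.34 with nanoceria on ground (adjusted p = 0.492). Hsbp1, which encodes a protein that binds HSF1, was at -0.23 ± 0.13 and -0.29 ± 0.16, the latter being -0.19 without untreated ground replicate 3. Array values are RNA levels and do not measure activation of HSF1, which is largely by trimer formation and modification of the protein.

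Chaperones of other compartments gave a point of comparison. Of 7 mitochondrial chaperones, 3 lay higher and 4 lower in space with a median of -0.088, such as Lonp1 at 0.30 ± 0.23 and the mitochondrial HSP90 Trap1 at -0.28 ± 0.22. On ground 4 lay higher and 3 lower with nanoceria (median 0.0058), with the mitochondrial HSP70 Hspa9 at -0.52 ± 0.28. Without untreated ground replicate 3, these were 6 higher and 1 lower (median 0.31), with Hspa9 at -0.069. Of 13 endoplasmic reticulum chaperones, 8 lay lower in space (median -0.13), with the calcium-binding Calr at -0.41 ± 0.15, and 12 lay lower with nanoceria on ground (median -0.28), with Canx at -0.50 ± 0.22 and Dnajb9 at -0.80 ± 0.36. Untreated ground replicate 3 held the highest value of all arrays for 11 of those 13. Without it, 8 of the 13 lay higher in space (median 0.021) and 9 higher with nanoceria on ground (median 0.080), with Canx at -0.31 and Dnajb9 at -0.24. In the cytosolic chaperonin TRiC and its partner prefoldin, which fold actin and tubulin, 6 lay higher and 6 lower in space (7 and 5 under cyclic loess). Cct6a was at 0.19 ± 0.13 and Pfdn1 at 0.39 ± 0.25 in space, and Pfdn1 at -0.74 ± 0.30 with nanoceria on ground. Over all 82 measured genes of these other chaperone lists, 35 lay higher and 47 lower in space with a median of -0.056, close to the 58.7% of all probe sets that lay lower. An unadjusted p below 0.05 was held by 2 that lay higher (5.3% of all probe sets) and 6 that lay lower (4.26%), and 0 passed adjustment in limma. The median of the 7 heat shock genes was -0.39, and the difference between the lists was not tested.

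**Figure D4:**
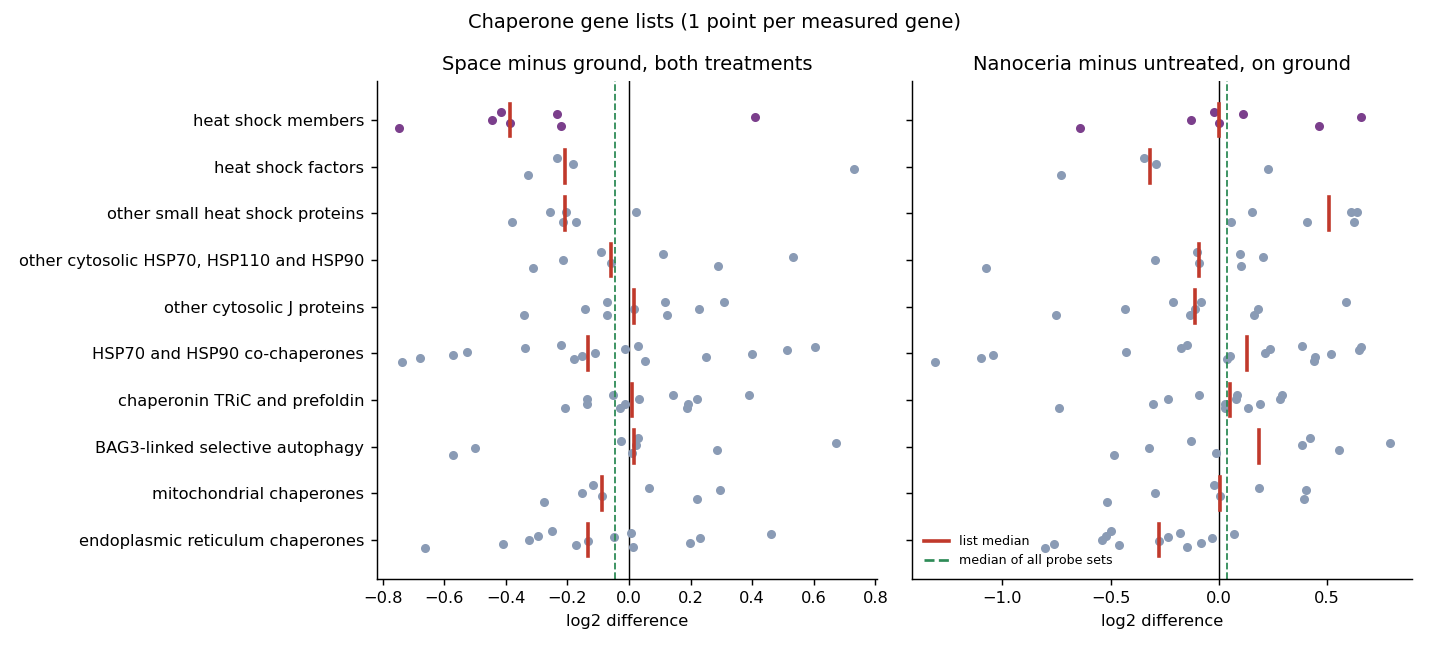
Log2 differences of each measured gene (points) in the 7 heat shock genes (top line) and 9 other chaperone lists, for space minus ground over both treatments (left) and nanoceria minus untreated on ground (right), with list medians in red and the median of all probe sets as a dashed line. The heat shock genes have a median of -0.39 at left, and the other small heat shock proteins have a median of 0.51 at right.

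Comparisons within space and within untreated cells rested on 1 untreated space array, and 0% of probe sets passed adjustment in limma in either or in the interaction. In space, 164 probe sets lay higher with nanoceria and 177 lower at an unadjusted p below 0.05, in untreated cells 379 lay higher and 349 lower in space, and 545 had such a p for the interaction. With nanoceria in space, 5 of the 7 genes lay higher (51.9% of probe sets did) and 2 lower, with Hspb1 higher at an unadjusted p below 0.05, as were 0.707% of probe sets. The differences other than that of Hspb1 ran from -0.24 (Hsp90aa1) to 0.39 (Bag3). In untreated cells, 6 of 7 lay lower in space (54.5% of probe sets did), with Hspb1 lower at an unadjusted p below 0.05, as were 1.51% of probe sets. In treated cells, 6 of 7 again lay lower in space with a median of -0.38, where 58.6% of probe sets lay lower with a median of -0.051. The muscle markers lay lower in space in treated cells too (10 of 11, median -0.49, with 5 at an unadjusted p below 0.05). They lay higher in space in untreated cells (9 of 11, median 0.75). Relative to all arrays, their mean was 0.062 on the untreated space array, -0.20 on untreated ground replicate 1 and -1.02 on untreated ground replicate 3. The part of these markers in the heat shock results was not tested. Of the 6 heat shock genes lower in treated cells, 2 (Hspb1 and Cryab) lay lower at an unadjusted p below 0.05, against 3.39% of the array (787 probe sets, with 1163 higher) and 0% after adjustment in limma (0 probe sets). Treated arrays did not overlap between regimes for Hspb1, Cryab, Hsph1 and Bag3 (lower, as for 17.6% of probe sets) or Hsp90aa1 (higher, as for 13.6%). No interaction of the 7 reached an unadjusted p below 0.05, against 2.35% of the array, with standard errors of 0.31 to 0.44.

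Profiles over the 8 arrays were compared by the root mean square difference after each gene was centred on its own mean, a description over arrays that share their scaling. Of the 21 pairs among the 7 genes, Hspa8 and Hsph1 were nearest at 0.13 and Hspb1 and Hsp90aa1 farthest at 0.86 log2 units. This measure depends on the size of a gene's range as well as its shape. Hspa8 had the narrowest range of the 7 genes, and Hspb1 and Hsp90aa1 had the widest. For Hspb1, the nearest of all other named genes were Unc45a at 0.16, Wdr6 at 0.20 and Creg1 at 0.21. For Hsp90aa1 they were Wnk1, Zc3h15 and Dclre1a, all between 0.083 and 0.084. For Bag3 they were Ap3d1 at 0.063, Dapk1 at 0.098 and Aars2 at 0.11. Unc45a, the nearest to Hspb1, was also in the co-chaperone list.

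**Figure D5:**
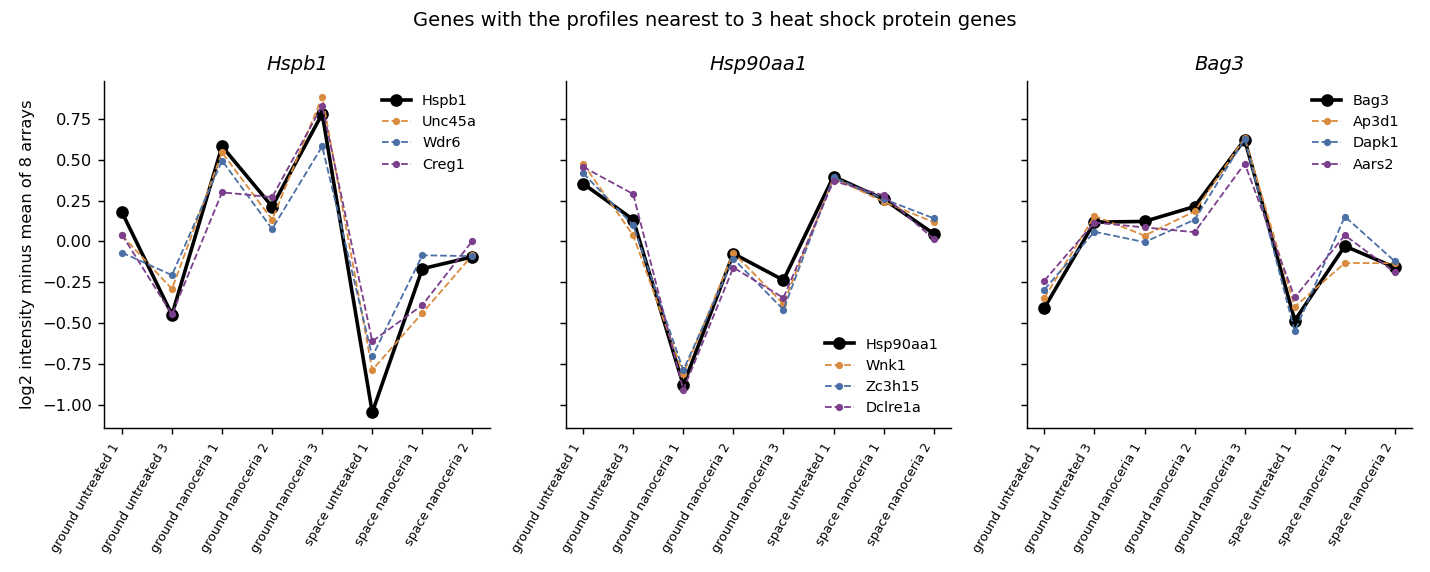
Log2 intensity minus each gene's mean over 8 arrays (y axis) by array (x axis) for Hspb1, Hsp90aa1 and Bag3 (black) and the 3 genes nearest to each (coloured, dashed). Lines join arrays only to guide the eye. Hspb1 and Unc45a differ by 0.16 log2 units in root mean square.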

How the data were processed

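Total RNA, 30 ng per sample, had been hybridised to rat Clariom S Pico arrays, 1 per sample. The deposited table held 1 linear intensity per probe set and array (23188 probe sets, 8.63 to 19506), made by the authors with RMA, per the submitters' processing notes. Software, version and settings are not given in the sources used here. Array medians ran from 107 to 117. No detection measure was used, so dim probe sets may be background, and the number of arrays limits the precision. Intensities were taken to log2 without a pseudocount. Groups came from the sample titles. The test was limma 3.58.1 (R 4.3.3) with Benjamini-Hochberg adjustment over all probe sets at 0.05. Comparisons over both treatments or regimes came from a model with both factors added (5 residual degrees of freedom). The others came from a model of the 4 group means (4 degrees of freedom), where the lone untreated space array is assumed to have the spread of the rest. The model with both factors was tested on simulated data for changes between space and ground larger than any difference of the 7 genes. Recovery of smaller changes, and recovery by the model of group means, were not checked. The 7 genes and all gene lists were chosen with earlier results of these data known. From each other chaperone list, up to 2 genes with the smallest p for space against ground and up to 2 for nanoceria on ground are named, and Hsf1 always. Hsp90ab1 and Hspa1a in space were added after their values were seen, as the closest relatives of members. Symbols come from the array's annotation (15049 probe sets with 1 symbol, 8139 with none here, 0 with several). The alternatives were other scalings, variance settings, array weights, a filter on dim probe sets, a pseudocount, a replicate block and leaving out each array. Lists were also counted under both scalings, and lists and their named genes taken without untreated ground replicate 3, added after the data were seen. The 3 nearest profiles are given for the 3 genes of widest range. Whether replicate numbers pair the samples could not be settled, and the main fits used no pairing.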

Additional observations from a re-analysis of the deposited data

How the results depend on the processing

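No heat shock gene passed adjustment in any fit. Over all probe sets, array weights gave 4 calls in space against ground instead of 0. Leaving out 1 array gave 0 to 1 there (1 without untreated ground replicate 3 or treated ground replicate 2), 0 to 167 for nanoceria on ground and 0 to 6 for space in untreated cells, both highest without untreated ground replicate 1, and 0 elsewhere. Without the untreated space array, nanoceria in space, space in untreated cells and the interaction could not be fitted. The median of the 7 genes ran from -0.42 to -0.29 for space against ground, -0.0060 to 0.12 for nanoceria over both regimes, -0.016 to 0.22 for nanoceria on ground and -0.48 to -0.30 for space in treated cells when arrays were left out. The number below 0 was then 6 in both space comparisons and 2 to 4 in both nanoceria comparisons. The number at an unadjusted p below 0.05 was 2 to 4, 1 to 3, 0 to 2 and 0 to 3 in that order of comparisons.

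Over both regimes, cyclic loess put 4 genes below 0 with nanoceria instead of 2, with Hspa8 at -0.045 and Hsph1 at -0.016. On ground, equal array medians put 2 below 0 instead of 4, with Hspa8 at 0.018 and Hsph1 at 0.040, and an unadjusted p below 0.05 was held by 1 gene under cyclic loess and 0 with array weights, instead of 2. In treated cells cyclic loess left 0 of 2. The mean of the effects in the 2 regimes left 1 of 3 for nanoceria. When arrays were left out, the nanoceria difference over both regimes ran from -0.29 to 0.081 for Hspb8, -0.061 to 0.14 for Hspa8 and -0.026 to 0.12 for Hsph1. On ground it ran from -0.47 to 0.22 for Hspb8, -0.060 to 0.28 for Cryab, -0.21 to 0.16 for Hspa8 and -0.14 to 0.13 for Hsph1. The causes of these shifts were not tested.

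Whether replicate numbers pair the samples could not be settled. Same-numbered ground samples correlated at -0.30 and -0.35 in their deviations from the group means. Same-numbered pairs of a space and a ground sample correlated at -0.025, -0.052 and -0.013. In a group of 2 the deviations mirror each other, so these correlations cannot exclude pairing. With the replicate block the median of the 7 genes was -0.22 for space against ground and -0.25 in treated cells. An unadjusted p below 0.05 was then held by 1 of 3, 0 of 2 and 1 of 2 genes for space against ground, space in treated cells and nanoceria on ground. On ground 2 genes were below 0 with the block, with Hspa8 at 0.031 and Hsph1 at 0.069.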
